A study of Mus musculus with 6 samples.

Results

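Gusb, the mouse gene for the lysosomal enzyme beta-glucuronidase, was followed through 6 one-colour arrays of C2C12 myotubes. It is 1 of 60915 probes, of which 60878 to 60906 had a value and were scaled on each array. It is also 1 of 15 that the files tie to a RefSeq accession, here NM_010368.1. Its probe is printed 20 times per array. Gusb was chosen because its level differed between CoCl2 and control arrays, so the values of that contrast are given as a description with no test.

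C2C12 cells are mouse myoblasts, muscle precursors that fuse into multinucleated fibres called myotubes once serum is reduced. All 6 cultures were grown in 10% fetal bovine serum and differentiated in 2% horse serum. The 3 control cultures received no treatment, and the 3 CoCl2 cultures received cobalt chloride at 200 uM for 48 h before collection. All came from 1 cell line, and the design text calls them independent experiments. By its title the study asks how CoCl2 cytotoxicity goes with levels of long noncoding RNAs, and Gusb is one of the few protein-coding probes that can be named on the array. None of the 21 myotube markers listed for the check, Myog and Ckm among them, is named by a probe, so the myotube label was not checked against its markers.

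Beta-glucuronidase removes terminal glucuronic acid residues from glycosaminoglycans such as heparan sulfate, dermatan sulfate and chondroitin sulfate as these chains are broken down in the lysosome. The enzyme reaches the lysosome through its mannose 6-phosphate tag, and its inherited loss causes mucopolysaccharidosis type VII (Sly syndrome), in which undegraded chains build up. Gusb is also in common use as a reference gene in quantitative PCR. CoCl2 is used to imitate low oxygen, since cobalt keeps hypoxia-inducible factors (HIFs) from being degraded. HIFs are the transcription factors that raise genes of glycolysis and angiogenesis in hypoxia.

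In the RefSeq annotation of assembly GRCm38.p6, Gusb (gene ID 110006) spans bases 129989011 to 130003049 of chromosome 5 on the minus strand. The 250 bases before its annotated start, chr5:130003050-130003299, are shown because CoCl2 acts on HIFs, which bind the core letters ACGTG or GCGTG. Capitals mark the core that was found.

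Gusb upstream sequence, minus strand, 5′ to 3′: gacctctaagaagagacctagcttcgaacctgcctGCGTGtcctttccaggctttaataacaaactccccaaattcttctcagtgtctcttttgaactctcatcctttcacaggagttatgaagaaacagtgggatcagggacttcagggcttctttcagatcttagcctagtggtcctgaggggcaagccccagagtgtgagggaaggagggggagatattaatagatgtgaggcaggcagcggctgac

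Searched on both strands, this window held 1 HIF core, GCGTG, at 215 to 211 bases before the start. ACGTG was not among its letters, nor was CACGTG, the E-box bound by regulators of lysosomal genes such as TFEB, which contains ACGTG. Of 32851 upstream windows of the same length in the RefSeq table, 28.2% held GCGTG, 16.6% ACGTG, 38.6% either of these, and 6.02% CACGTG. A HIF core is therefore common in such windows, and its presence here is a description of letters and no evidence of binding. The sequence of the array probe and its place in the transcript were not analysed here.

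Gusb was bright on every control array, much dimmer on every CoCl2 array, and still well detected there. The median processed signal over the spots kept was 7174 intensity units in control 1, 8416 in control 2 and 10828 in control 3. After CoCl2 it was 629 in replicate 1, 1388 in replicate 2 and 1053 in replicate 3. Before any scaling between arrays, the lowest of the control spots kept (6837) was thus well above the highest of the CoCl2 spots kept (1430).

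To set arrays side by side, the log2 signal of each array was lowered by its 75th percentile over the probes with a value there. On this scale 0 is the level of a probe brighter than 75% of the others. On this scale Gusb was at 4.05, 4.46 and 4.27 in the control cultures, and at 0.89, 1.61 and 1.35 in CoCl2 replicates 1 to 3. All 3 CoCl2 values lay far below all 3 controls, and the groups did not overlap. The control mean was 4.26 ± 0.20 (SD, n = 3) and the CoCl2 mean 1.28 ± 0.36 (SD, n = 3), a log2 difference of -2.98 (SE 0.22), or 7.87-fold lower. The treated cells thus kept 12.7% of the control level. The difference was 10.1 times the pooled SD over arrays, 0.30. Among all tested probes 47.6% passed an adjusted p of 0.05 in limma, 22.4% with a lower level after CoCl2, and 27.5% had every CoCl2 array below every control. With slide as a block, which leaves 1 control beside the 3 CoCl2 arrays, 15.7% passed (7.64% lower), and with scan day as a block 21.6%. Because Gusb was chosen on this contrast, nothing is read from its place on that side.

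Each CoCl2 culture was low on its own. Against the control mean Gusb was 10.3-fold lower in CoCl2 replicate 1, 6.26-fold lower in replicate 2 and 7.54-fold lower in replicate 3. Over the 9 pairs of a control with a CoCl2 array, the smallest difference was 5.42-fold (control 1 with CoCl2 replicate 2) and the largest 11.8-fold (control 2 with CoCl2 replicate 1). The depth of the fall thus differed between cultures. Its direction was the same in all 9 pairs, which follows from the groups not overlapping. These are whole-culture RNA measurements, in which fewer cells that carry the transcript and less transcript per cell cannot be told apart.

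**Figure D1:**
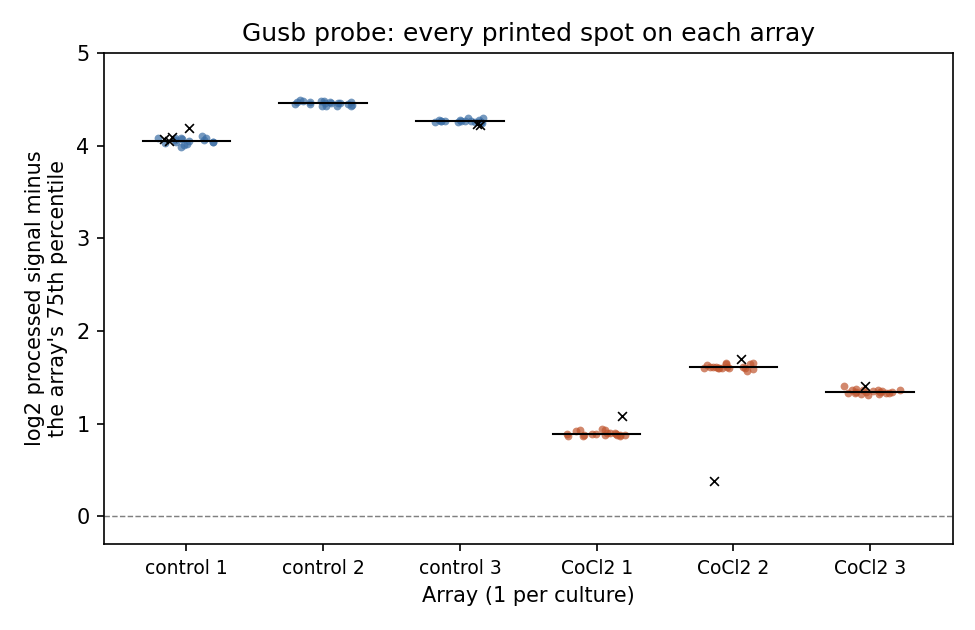
Every printed spot of the Gusb probe on each array, as log2 processed signal minus the array's 75th percentile (y axis), for 3 control and 3 CoCl2 arrays (x axis). Dots are the spots kept, crosses the spots left out as outliers, black lines the array means and the dashed line the 75th percentile. The control means lie at 4.05 to 4.46 and the CoCl2 means at 0.89 to 1.61.

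Gusb remained a clearly detected transcript after CoCl2, so what was measured is a reduction and not an absence. All 120 Gusb spots were well above background by the scanner software's own flag, and none was saturated. The array carries 15 negative probes, each printed 20 times like Gusb, which have no target. Above the mean of these, Gusb stood at 9.58, 10.4 and 10.2 on the log2 scale in the controls, and at 6.27, 7.49 and 7.41 in CoCl2 replicates 1 to 3. Neither group was thus near the limit of the measurement, and the fold change is a measured value and not a bound.

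Its place within each array showed the same fall without any scaling. Gusb was brighter than 92.6%, 94.0% and 93.7% of the probes in the controls, and brighter than 80.3%, 84.2% and 82.8% in CoCl2 replicates 1 to 3. Counted from the brightest probe, it was at rank 4489, 3658 and 3820 in the controls and at rank 11987, 9637 and 10462 after CoCl2. On every CoCl2 array Gusb thus ranked below its place on every control array.

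The 20 printed spots agree closely, which sets how well each array's value is known. Of 120 spots, 110 were kept, 54 on control and 56 on CoCl2 arrays, and 10 were left out because the scanner software marked them as population outliers. The SD over the kept spots of an array ranged from 0.0149 (control 3) to 0.0314 (control 1) on the log2 scale. The coefficient of variation of the linear signal ranged from 1.04% to 2.17% over the 6 arrays. The SD over arrays within a group was 12.9 times the pooled SD over spots, 0.0229. Printing repeats therefore add little to the error, and the spread between the cultures or arrays of a group sets it.

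The difference varied little over the array surface at the positions that can be compared on all arrays. Of the 20 printed positions, 14 were kept on all 6 arrays, in rows 33 to 291 of 384 and columns 20 to 127 of 164. At these 14, the difference between CoCl2 and control means ranged from -3.01 to -2.93 on the log2 scale, with a median of -2.98. The 14 differences span 0.077 in all. The other 6 positions lack 1 to 3 arrays, so their means rest on unequal sets of arrays. Values there were from -3.35 (row 171, column 11, kept on 3 arrays) to -2.95 at 5 positions, and the last, in row 306, was left out on every CoCl2 array. The lowest kept control spot, at 3.99, was 5.04-fold above the highest kept CoCl2 spot, at 1.65. The positions are repeats of 1 probe on the same arrays and are not replicates of the treatment.

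Of the 10 spots left out, 9 were within 0.19 of the mean of their array on the log2 scale. The exception was a spot of CoCl2 replicate 2, 1.24 below its array's mean. That position (row 171, column 11) was also left out on control 1 and control 3. With every spot kept, the difference for Gusb was -2.99.

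**Figure D2:**
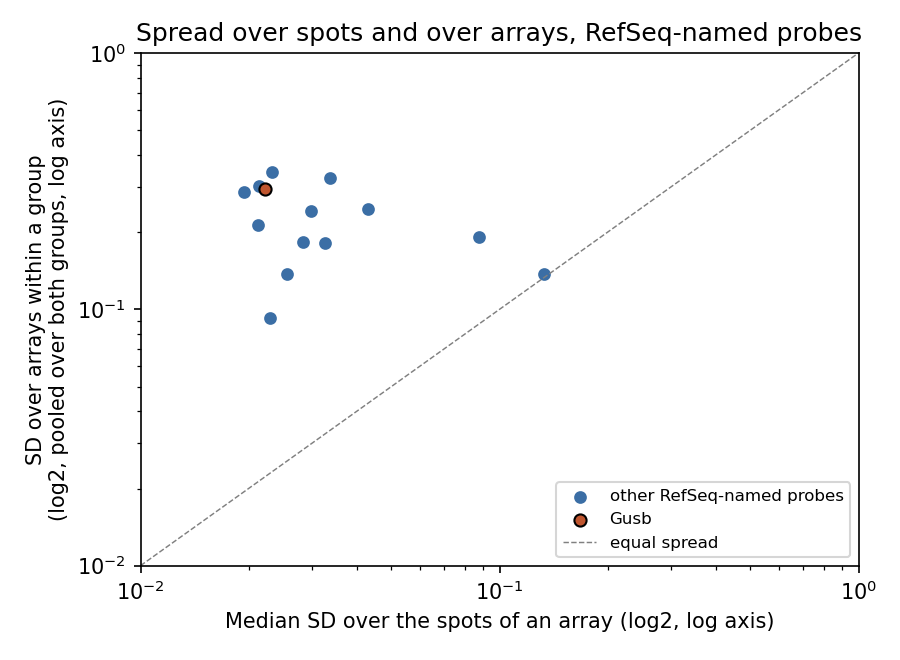
Spread of the 14 tested RefSeq-named probes, each printed 20 times. The x axis is the median over the 6 arrays of the SD over spots, the y axis the SD over arrays within a group, pooled over both groups, both in log2 units on log axes. The dashed line marks equal spread. Gusb lies at 0.0222 and 0.30, and its array spread is 12.9 times its pooled spot spread.

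The other probes with a RefSeq name, mostly metabolic and housekeeping genes, are printed 20 times as well and allow the precision to be compared. Their median SD over spots ranged from 0.0194 for the ribosomal protein gene Rpl13a to 0.13 for the glycerol kinase gene Gk. Gusb was at 0.0222, below the median of these values for the other 13 genes, 0.0284. Over the 3 control arrays the SD of Gusb, 0.20, lay close to the median of the other 13 genes, 0.20. Over the 3 CoCl2 arrays its SD of 0.36 was above their median of 0.16, with 2 of the 13 higher (Rpl13a, and Tbp, encoding the TATA-binding protein). Over all tested probes 23.9% had an SD over the CoCl2 arrays above that of Gusb.

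CoCl2 replicate 1 held the lowest Gusb value, and replicate 2 the highest of the treated arrays. All 13 other tested RefSeq-named genes lined up across the CoCl2 arrays in the same order (3 genes) or in the reverse order (10 genes). G6pd2, which arose by retrotransposition from the gene of glucose-6-phosphate dehydrogenase, was at -1.36, -0.97 and -1.04 in CoCl2 replicates 1 to 3, and Hprt, of the purine salvage pathway, at 8.18, 7.61 and 7.89. CoCl2 replicate 1 also had the lowest 75th percentile of the CoCl2 arrays (8.41 in log2 units, against 8.83 and 8.70 in replicates 2 and 3). Its share of probes well above background was also the lowest of the 6 arrays, at 50.9% (53.7% to 57.6% in the others). The part of these array properties in the lower Gusb value of that replicate was not tested.

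No other tested RefSeq-named probe had a difference as low. Of the other 13 tested, 6 were lower and 7 higher after CoCl2, over a range of log2 differences from -1.12 (G6pd2) to 1.01 (Gk), with a median of 0.00. In 3 of the 13 every CoCl2 array was below every control, as for Gusb, and these were G6pd2, the splicing-related gene Nono and the tubulin gene Tuba1b. In another 5 (Gk, Hprt, Rpl13a, Gapdh and the chaperone gene Hsp90ab1) every CoCl2 array was above every control. Over all tested probes with 6 values these shares were 27.5% and 32.1%. Ldhal6b, related to lactate dehydrogenase, did not rise well above background on the 6 arrays and was not tested.

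The difference for Gusb minus the difference for another gene does not change when a constant is subtracted per array, as in the 75th-percentile scaling. Quantile normalization is not of this kind and was not run for this comparison. Against G6pd2, which had the lowest difference of the 13, Gusb was still 3.61-fold lower. Against Gk, which had the highest, it was 15.8-fold lower. The median over the 13 genes was 7.88-fold, close to the 7.87-fold of the 75th-percentile scaling. Each comparison shows an unequal change of both genes and does not show that either stayed constant. Relative to the mean of the 13 on each array, Gusb was lower by 8.06-fold after CoCl2.

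**Figure D3:**
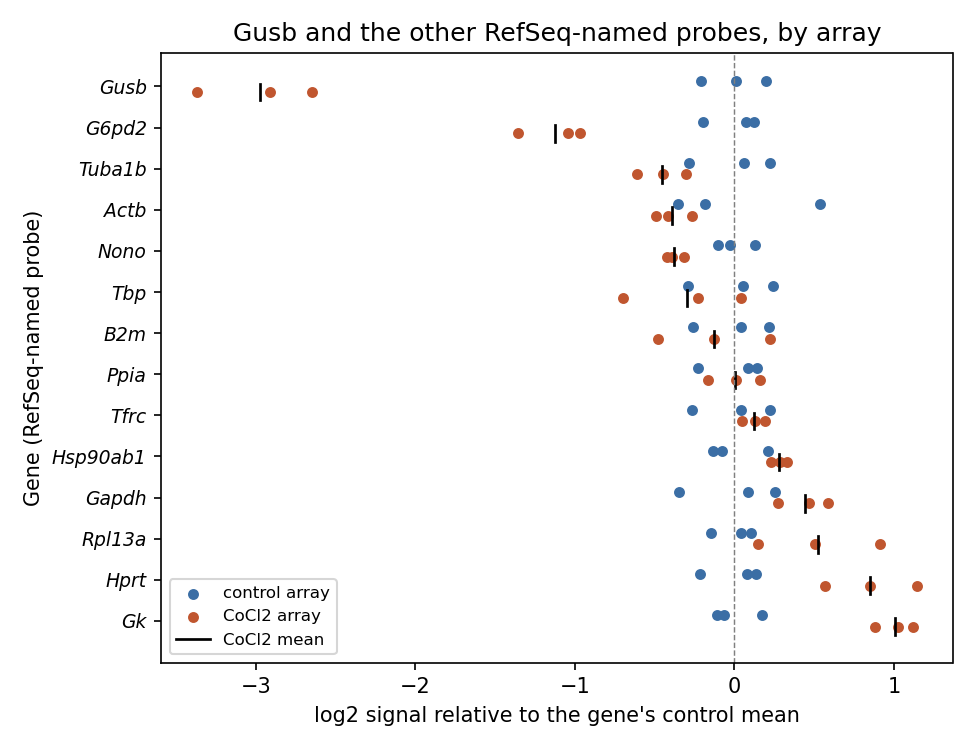
The 14 tested RefSeq-named probes by array. The x axis is the log2 signal relative to the gene's own control mean, blue dots are the 3 control arrays, orange dots the 3 CoCl2 arrays and black ticks the CoCl2 means. Gusb, at -2.98, lies outside the range of the other 13 genes, -1.12 to 1.01.

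Among probes as bright as Gusb in the control cultures, few had a lower difference. A set of 1572 probes had a control mean within 0.5 of that of Gusb on the log2 scale. Of these, 32 (2.04%) had a lower difference. This place was part of the choice of Gusb, so it is a description. The set as a whole was centred near 0, with a median difference of 0.067, and 46.4% of it was lower after CoCl2. At least 2-fold falls were seen for 13.9% of the set, at least 2-fold rises for 11.5% and at least 4-fold falls for 69 probes (4.39%). The lowest 5% of the set lay below -1.86 and the lowest 1% below -3.92, so Gusb at -2.98 sat between these limits.

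The same held over the whole array. Of 34786 tested probes with a value on all 6 arrays, 698 (2.01%) had a lower difference than Gusb. At least 4-fold lower means after CoCl2 were seen for 5.02% of them. The gap between the lowest control and the highest CoCl2 array, 2.44 on the log2 scale for Gusb, was wider for 615 probes (1.77%). Most of them are listed by array ID alone, so these transcripts are not named here. The contrast behind these ranks is the one by which Gusb was chosen.

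**Figure D4:**
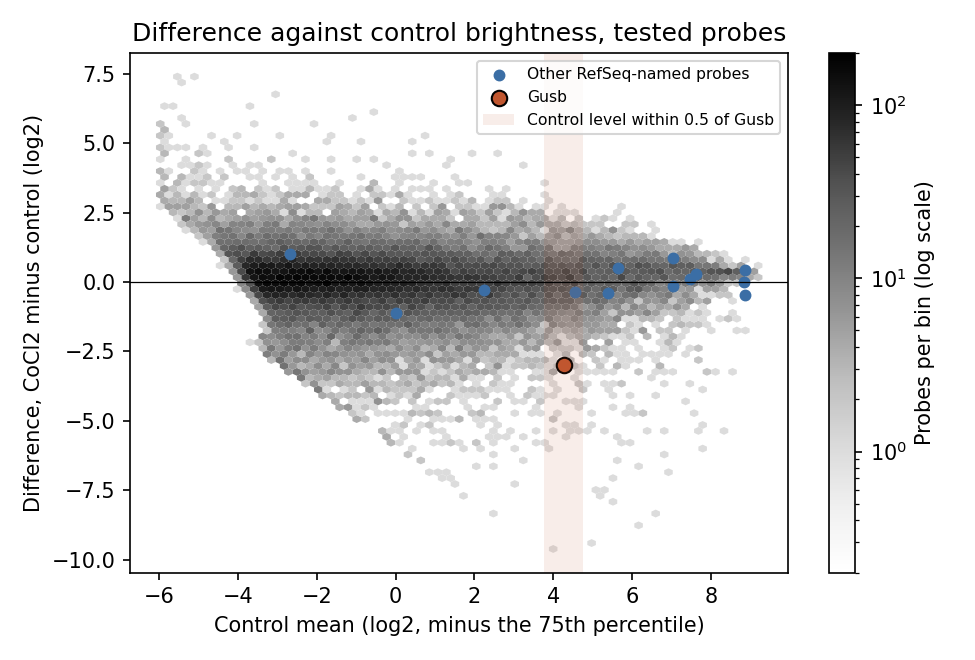
Difference between CoCl2 and control (y axis, log2) against the control mean (x axis, log2 minus the 75th percentile) for the 34786 tested probes with 6 values. Grey bins count probes on a log scale, blue dots are the other 13 RefSeq-named probes, the orange dot is Gusb and the shaded band marks control levels within 0.5 of it. In the band 32 of 1572 probes lie below Gusb.

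The genes that work beside Gusb could not be followed. Of 18 genes listed for lysosomal glycosaminoglycan breakdown, among them Idua and Sgsh, Gusb alone is named by a probe. None of 39 further genes of lysosome formation and lysosomal proteins, such as Tfeb and Lamp1, is named. Of 18 listed HIF targets the array names by RefSeq accession only Tfrc, encoding the transferrin receptor, with a log2 difference of 0.12 (SE 0.17). Whether other lysosomal transcripts moved with Gusb was therefore not tested.

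Among the 371 other tested probes with a gene or lincRNA name and 6 values, the profile nearest to that of Gusb belonged to MM9LINCRNAEXON11010+_P1, a probe named for an exon of a long intergenic noncoding RNA. Nearness was the Euclidean distance between the 6 values of each probe after subtracting its own mean, 0.86 for this probe. It was at -0.90, -1.03 and -0.91 in the controls and at -3.68, -4.01 and -3.61 in CoCl2 replicates 1 to 3. Like Gusb it was lower on every CoCl2 array, but it was well above background on only 1 of these. The next nearest were MM9LINCRNAEXON11009-_P1 (distance 1.13), not well above background on any CoCl2 array and at least 1.23-fold lower there, and MM9LINCRNAEXON10888-_P1 (distance 1.14), well above background on 2 of the 3 CoCl2 arrays. The distances of all 3 probes thus rest partly on signals that are not well above background, and their order and likeness to Gusb are uncertain. At least N-fold values set the dim arrays at their lowest signal well above background. No RefSeq-named gene was among the nearest, and 505 of 34785 tested probes of any kind were nearer to Gusb than the nearest named one.

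By Pearson correlation over the 6 arrays, which ignores the size of a change, the closest were MM9LINCRNAEXON11806+_P1 (r = 0.998), humanlincRNA2017-_P1 (r = 0.997) and mouselincRNA0453+_P1 (r = 0.995). The log2 differences of MM9LINCRNAEXON11806+_P1 and mouselincRNA0453+_P1, both well above background on all 6 arrays, were -1.16 and -1.85, against -2.98 for Gusb. The probe humanlincRNA2017-_P1 was not well above background on any CoCl2 array, where it was at least 2.40-fold lower, so its r rests partly on signals that are not well above background. With 2 groups that lie far apart, such a correlation is mostly set by the group means. An r above 0.9 with Gusb was found for 19.5% of all tested probes. These correlations are descriptions over 6 arrays that share their scaling.

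The arrays were not scanned together, and the control cultures are spread over the scans. Controls 1 and 2 were each scanned on their own on day 1, while control 3 shared a scan start, taken here as a slide, with the 3 CoCl2 arrays on day 2. On that shared slide Gusb was at 4.27 in control 3, between the values of controls 1 and 2. Against control 3 alone, the CoCl2 arrays were 10.4-fold, 6.29-fold and 7.58-fold lower, and their mean log2 difference was -2.98, as against all 3 controls. The comparison on the shared slide rests on 1 control array. The part of slide or scan day in the Gusb difference was not tested.

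The brightness of the glass beside each spot is read as its local background. The local background around the Gusb spots, a measure that did not enter the choice of Gusb, was also lower on every CoCl2 array than on any control. On the log2 scale it was 4.54, 4.53 and 4.55 in the controls and 4.37, 4.28 and 4.18 in CoCl2 replicates 1 to 3, a difference of -0.26 (exact permutation test, two-sided, p = 0.1, the smallest p that 3 arrays against 3 can give). Around all non-control spots the difference was -0.19, and around those of the other 13 RefSeq-named probes -0.21. In intensity units the local background at the Gusb spots went from 23.3 to 19.4 as geometric means. The spot signal went from 8665 to 975. A change of 3.87 units in the background stood beside a change of 7690 in the signal, from which background had already been subtracted. The difference for Gusb was -2.88 under normexp, run on the median spot signal. This correction subtracts the local background, fits a model to the remainder and adds a constant, here 50 units, to every spot. Adding a constant by itself makes log2 differences smaller. Normexp was added after the files were seen. The part of the local background in the Gusb difference was not tested.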

How the data were processed

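RNA of 3 control and 3 CoCl2 cultures was measured on 1 array each. Random-primed, Cy3-labelled cRNA was made from RNA depleted of ribosomal RNA, per the labels' protocols. The deposited files hold spot intensity on a linear scale, made with Agilent Feature Extraction 11.0.1.1 per the file headers, which subtracted background with spatial detrending and applied no normalization between arrays. The deposited flags of 0 or 1 mark outliers, saturation and spots well above background. The files give a signal per spot, so the number of arrays limits the precision.

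Left out were control spots, the 15 negative probes and spots marked as outliers. The outliers came to 57 to 100 non-control spots per array, a count that includes any on the negative probes. The log2 spot values of a probe were averaged and lowered by the array's 75th percentile over those of the 60915 probes with a value on it. Tests covered the 34839 probes detected well above background on 3 or more of the 6 arrays. Probes printed repeatedly had to have 50% or more of their spots so marked. The tool was limma 3.58.1 (R 4.3.3), run two-sided on CoCl2 minus control and adjusted by Benjamini-Hochberg at 0.05. This fit gives the background shares and the SEs, and Gusb itself has no test. Python 3.11.15 was used for the rest. The fit was tested on simulated data.

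Gusb, the gene lists and the rules were chosen with earlier results of these data known. Named beside Gusb, by rule, are the 3 nearest named probes by distance, the 3 by correlation, the RefSeq-named genes at the ends of the range and listed genes with a probe. Gapdh, Hprt, Hsp90ab1, Ldhal6b, Nono, Rpl13a, Tbp and Tuba1b were named after their values were seen. All 15 RefSeq accessions matched the GRCm38.p6 gene table. The array design is annotated to mm9, so no probe coordinates are given. The authors' deposited value table was not used, since no row in it carries the Gusb probe's ID.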

Additional observations from a re-analysis of the deposited data

How the results depend on the processing

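Over 17 alternatives the log2 difference for Gusb was from -3.15 (no scaling between arrays) to -2.78 (without CoCl2 replicate 1). Each was within 1 SD over arrays of the main -2.98. Direction could not change on leaving out an array, since the groups do not overlap. The slide and scan day blocks gave the same value, -2.98, as both compare CoCl2 with control 3 alone. Leaving out 1 array gave -3.14 to -2.78, quantile normalization -3.04 and normexp, added after the files were seen, -2.88. The share of like-bright probes that fell further was 1.43% to 2.29%, and the median difference relative to the other RefSeq-named probes -3.23 to -2.70. With slide as a block 5453 probes passed and with scan day as a block, added after the files were seen, 7511, against 16580. Both blocks leave 1 control on the shared slide and fewer residual degrees of freedom. Leaving out 1 array gave 11491 to 17538.

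With the replicate number as a block the Gusb difference stayed at -2.98 (SE 0.13) and 18766 probes passed. Same-numbered arrays deviated from their group means with correlations of 0.30, 0.36 and -0.03 over 34786 probes, so the numbers were not taken to pair the cultures. CoCl2 replicate 3 did not correlate best with its own number. The alternatives that use the deposited value table or a mean spot signal were not run.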
